A study of Homo sapiens with 8 samples.

Results

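The genes examined encode the nuclear subunits of the 5 oxidative phosphorylation complexes, measured in SEM cells in which the MLL/AF4 fusion transcript was knocked down. Members were taken by symbol, from probes whose annotated gene begins with NDUFA, NDUFB, NDUFC, NDUFS, NDUFV, SDHA to SDHD, UQCR, COX4 to COX8 or ATP5, or is CYC1. After 20 probes of assembly factors and 22 probes of pseudogenes were left out, 105 probes of 78 genes remained, of 27210 probes and 18205 genes with a single symbol. They comprised 33 genes of complex I, 3 of complex II, 9 of complex III, 16 of complex IV and 17 of complex V. Of the 78 genes, 69 passed the filter on dim probes and were tested, among 9096 genes in all.

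SEM is an established leukaemia line with the features of a B-cell precursor and the MLL/AF4 fusion gene, and it stood here as 1 line with 1 array per treatment and day. In the siMLL/AF4 group, cells were electroporated up to 3 times with siRNA against the fusion transcript and taken on days 2, 4 and 6. The siCtrl group received a control siRNA on the same schedule and was taken on the same days. The MOCK group was pulsed without siRNA and taken on days 2 and 4, so all 8 arrays come from pulsed cells. Where treatments were compared, days stood in the place of replicates, so the spread behind those p-values is that among days and arrays. Where day 4 was compared with day 2, the 3 treatments stood in that place, so the spread is that among treatments. Separate cultures were not compared.

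Oxidative phosphorylation is the process by which mitochondria turn the oxidation of nutrients into ATP. Complexes I and II pass electrons from NADH and succinate to ubiquinone, complex III passes them on to cytochrome c, and complex IV gives them to oxygen. Complexes I, III and IV pump protons across the inner membrane while they do so, and complex V lets the protons flow back to make ATP. Most subunits are encoded in the nucleus and are joined in the mitochondrion to a few that mitochondrial DNA encodes; probes of those few were not analysed here.

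Levels are log2 values, converted from deposited values taken to be natural logs. If these were logs to base 2, every log2 level and difference would be 0.693 times as large, and counts at 2-fold would be smaller. The 2 arrays of day 6 were of a newer version than the 6 earlier ones, and differences were taken within a day. The siMLL/AF4 array of day 6 had a median Spearman correlation of 0.861 with the 6 older arrays, and the siCtrl array of day 6 one of 0.906, against 0.944 to 0.961 among the older arrays (across probes, which are not independent replicates). The KMT2A (MLL) probe differed between siMLL/AF4 and siCtrl cells by -0.49, -0.55 and -0.53 on days 2, 4 and 6, but siMLL/AF4 cells lay 0.06 and 0.04 above MOCK cells on days 2 and 4, where siCtrl cells lay 0.55 and 0.59 above MOCK. One AFF1 (AF4) probe differed between siMLL/AF4 and siCtrl cells by -0.35, -1.37 and -2.0 and the other by -2.02, -1.21 and -0.51. From MOCK cells, siMLL/AF4 cells differed at these AFF1 probes by 1.14 and -0.05 and by -0.60 and 0.13 on days 2 and 4, and siCtrl cells by 1.32 to 1.49. Whether any of these probes measures the fusion transcript was not tested. Of 13 B-cell precursor markers with a probe, 5 (CD79A, CD79B, EBF1, VPREB1 and TCL1A) lay above the 75th percentile of all values on every array, whereas PAX5, RAG1, RAG2, DNTT, CD24, BLNK and VPREB3 had no value on at least 1 array. Of 9 myeloid markers, CEBPA alone lay above that percentile on every array, and none of 9 T and NK cell or 6 erythroid markers did. The T and NK cell marker NKG7 ranged from 8.07 to 10.43, below that percentile (8.155) on the siMLL/AF4 array of day 2 alone. GZMA ranged from 4.57 to 8.02, and the other 7 T and NK cell markers had no value on at least 1 array. The summed level of the B-cell precursor markers ranged from 13.16 to 13.55 in siMLL/AF4 cells, from 13.08 to 13.45 in siCtrl cells and from 13.11 to 13.67 in MOCK cells. In RNA from whole cultures, fewer cells of a type and less RNA per cell cannot be told apart.

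The promoters of 64 of the 78 genes were listed in RefSeq (GRCh38.p14), each as 250 bases before to 50 bases after the annotated start. One is printed for each complex, because the data below concern genes of all 5 complexes and these 5 windows each hold a motif. Capitals mark the matches, searched on both strands, to GCGCATGC (the core of the site of the respiratory factor NRF1), CCGGAAGT (the site of the ETS factor GABPA) and AAGATGGC (the core of the site of YY1). Matches to GCGCATGC on opposite strands can overlap and then make 1 longer run of capitals. NDUFA3 lies at chr19:54102605-54102904 (plus strand), SDHD at chr11:112086623-112086922 (plus strand), UQCRQ at chr5:132866392-132866691 (plus strand), COX8A at chr11:63974370-63974669 (plus strand) and ATP5F1C at chr10:7787927-7788226 (plus strand).
NDUFA3: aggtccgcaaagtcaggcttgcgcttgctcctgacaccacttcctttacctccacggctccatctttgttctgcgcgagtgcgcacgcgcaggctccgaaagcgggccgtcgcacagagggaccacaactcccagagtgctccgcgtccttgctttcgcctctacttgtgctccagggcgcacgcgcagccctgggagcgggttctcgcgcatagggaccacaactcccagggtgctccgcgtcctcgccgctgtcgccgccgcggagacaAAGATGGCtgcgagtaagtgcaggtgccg
SDHD: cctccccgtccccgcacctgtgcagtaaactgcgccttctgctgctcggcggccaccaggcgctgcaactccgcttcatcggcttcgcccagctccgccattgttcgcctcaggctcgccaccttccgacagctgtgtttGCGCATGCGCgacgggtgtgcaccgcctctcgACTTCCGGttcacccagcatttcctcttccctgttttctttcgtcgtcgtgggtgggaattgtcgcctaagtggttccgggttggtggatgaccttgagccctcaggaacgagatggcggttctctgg
UQCRQ: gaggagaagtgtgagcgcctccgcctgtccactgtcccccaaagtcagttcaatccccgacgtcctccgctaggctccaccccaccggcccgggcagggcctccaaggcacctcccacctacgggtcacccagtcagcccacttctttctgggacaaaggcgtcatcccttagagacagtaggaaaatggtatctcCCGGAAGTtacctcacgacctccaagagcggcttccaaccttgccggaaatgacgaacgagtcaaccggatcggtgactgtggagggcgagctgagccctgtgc
COX8A: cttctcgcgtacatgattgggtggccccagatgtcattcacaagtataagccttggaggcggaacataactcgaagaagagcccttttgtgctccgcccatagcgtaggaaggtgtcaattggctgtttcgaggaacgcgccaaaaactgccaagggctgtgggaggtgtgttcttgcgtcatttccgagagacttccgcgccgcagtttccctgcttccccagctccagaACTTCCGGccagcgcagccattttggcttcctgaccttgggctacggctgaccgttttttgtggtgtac
ATP5F1C: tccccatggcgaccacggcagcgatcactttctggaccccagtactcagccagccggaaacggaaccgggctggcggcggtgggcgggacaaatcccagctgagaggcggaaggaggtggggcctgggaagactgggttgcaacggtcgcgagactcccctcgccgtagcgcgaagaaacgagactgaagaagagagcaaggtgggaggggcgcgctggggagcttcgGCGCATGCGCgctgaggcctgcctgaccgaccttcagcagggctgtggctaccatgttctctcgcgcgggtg

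GCGCATGC was present in 11 of the 64 promoters (17.2%), against 3.05% of all 35116 listed promoters. Members had 1 promoter per gene, whereas the 35116 were not reduced to 1 per gene and not limited to measured genes. CCGGAAGT was present in 10 (15.6%, against 4.14%), and AAGATGGC in 9 (14.1%, against 2.89%). TATAAA, the TATA box, was present in 6 (9.38%, against 11.5%). The median day 2 difference between siMLL/AF4 and siCtrl cells was -0.75 over 9 tested genes with GCGCATGC and -0.61 over 49 without it. For CCGGAAGT these medians were -0.60 (10 genes) and -0.66 (48 genes), and for AAGATGGC -0.44 (9 genes) and -0.67 (49 genes). A match describes these letters only and is no measurement of binding. The motifs were chosen with the values known, and these shares and medians were not tested.

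Averaged over the 3 days, most subunit genes were slightly lower in siMLL/AF4 than in siCtrl cells, and none was called. The tested genes had a median difference of -0.18, against -0.01 over all genes, and 59 of 69 lay below 0, against 50.8% of all genes. None of the 69 was called by limma at an adjusted p under 0.05 (0.0% of 9096 genes called), and none reached an unadjusted p under 0.05 either (7.39% of all genes). The lowest adjusted p among the members was 0.675. By complex, the median difference was -0.27 in complex I, -0.02 in complex II, -0.05 in complex III, -0.23 in complex IV and -0.16 in complex V. Without the day 2 pair the median was 0.02 and 34 of 71 tested genes lay below 0 (54.1% of all genes), so the direction of the average rested on that pair.

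The days differed in direction. On day 2 the median difference was -0.64, with 55 genes lower and 13 higher in siMLL/AF4 cells, while 45.0% of all genes were lower and the median of all genes was 0.09. At least 2-fold lower on day 2 were 12 genes (7.08% of all genes), 8 of them in complex I. On day 4 the median was 0.17, with 15 genes lower and 53 higher (51.8% of all genes lower). On day 6 it was -0.13, with 48 lower and 20 higher (55.1% of all genes lower). Lower on day 2 and higher on day 4 were 46 of the 69 genes, a pattern held by 20.2% of all genes. Only 7 genes were lower on all 3 days (14.6% of all genes), namely ATP5MF, ATP5PB, ATP5PD, NDUFA11, NDUFA12, NDUFS4 and NDUFS8, and 3 were higher on all 3 days (14.6% of all genes), namely NDUFA5, SDHC and UQCR11. For 3 of these genes a second probe broke the pattern. The second ATP5PB probe differed by 0.12 on day 2, that of ATP5PD by 0.20 on day 4 and that of SDHC by -0.39 on day 2. No single day was tested, since each had 1 array per treatment.

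**Figure D1:**
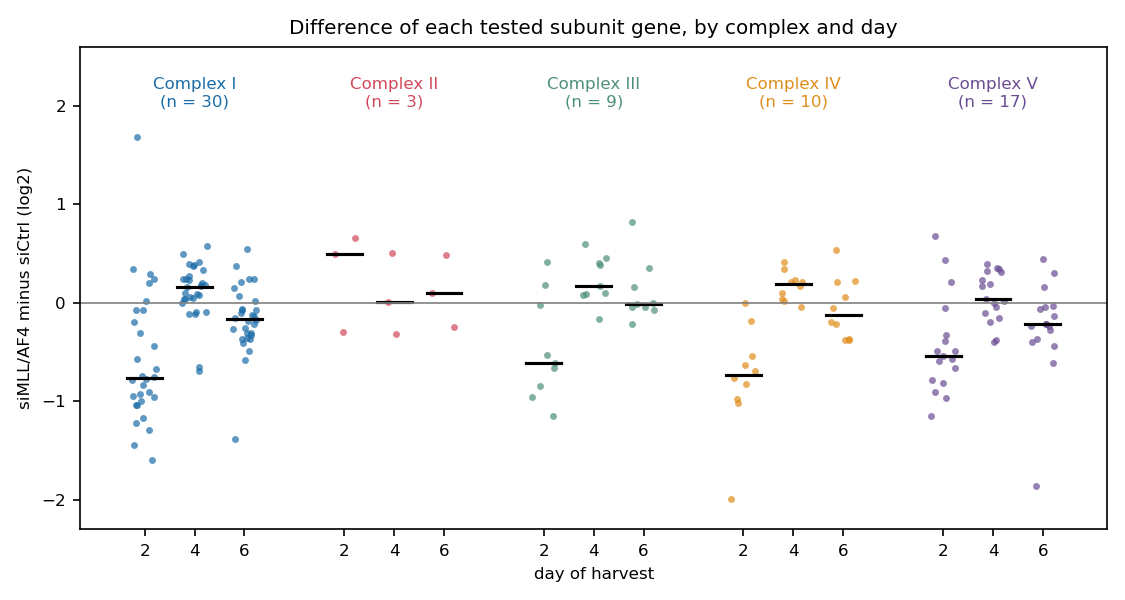
Difference between siMLL/AF4 and siCtrl cells (log2, vertical axis) for each of the 69 tested subunit genes, 1 point per gene, by complex and by day of harvest (horizontal axis). Black bars are medians. On day 2 the medians of complexes I, III, IV and V lie between -0.76 and -0.54, and that of complex II at 0.50; on day 4 all 5 medians lie between 0.01 and 0.19.

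On the siMLL/AF4 array of day 2 the subunit genes were low against every other array of the same version. Of 70 genes tested on the 6 older arrays, 54 had their lowest value there, against 16.4% of all genes. The siCtrl array of day 2 held the lowest value of 10 genes (25.6% of all genes), and the MOCK array of day 2 that of none (14.1%). Highest values were on the siMLL/AF4 array of day 4 for 22 genes (15.1% of all genes), on the MOCK array of day 4 for 29 (20.1%) and on the MOCK array of day 2 for 15 (13.2%). The 16 genes that did not have their lowest value on the siMLL/AF4 array of day 2 included both catalytic-site subunits of ATP synthase (ATP5F1A and ATP5F1B), SDHA, SDHC, CYC1, UQCRC1, NDUFS1 and NDUFV1. The others of the 16 were ATP5MC3, NDUFA5, NDUFA9, NDUFA10, NDUFB1, NDUFC2, NDUFV3 and UQCR11. The siMLL/AF4 array of day 2 had a median Spearman correlation of 0.954 with the other older arrays over all probes, within the range of the others.

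Complex I oxidises NADH through a core that holds flavin and iron-sulphur centres, surrounded by accessory subunits. On day 2 its 24 tested accessory genes had a median difference of -0.87, with 19 lower, and its 6 tested core genes one of -0.25, with 5 lower. On day 4 the medians were 0.18 and 0.12, and on day 6 they were both -0.16. These roles were assigned with the values known, and the gap between them was not tested.

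NDUFA11, an accessory subunit of the membrane arm, had levels of 10.80, 11.89 and 12.08 in siMLL/AF4 cells on days 2, 4 and 6, against 11.59, 11.98 and 12.58 in siCtrl cells and 12.71 and 12.53 in MOCK cells on days 2 and 4. The siMLL/AF4 level was below the siCtrl level on each day, the most so on day 2, yet the groups overlapped across days. The mean difference was -0.46 ± 0.35 (SD, n = 3 days; limma, adjusted p = 0.771). NDUFA3, another small accessory subunit of the membrane arm, had 10.99, 12.55 and 12.24 in siMLL/AF4 cells and 12.43, 12.49 and 12.49 in siCtrl cells, with 12.82 and 13.03 in MOCK cells. Its day 2 siMLL/AF4 value stood apart below the other 7, and its day 4 value lay above all siCtrl values. The mean difference was -0.55 ± 0.79 (SD, n = 3 days; limma, adjusted p = 0.818).

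At the other end, NDUFA5, an accessory subunit of the matrix arm, had 6.65, 7.16 and 7.77 in siMLL/AF4 cells, against 4.97, 6.75 and 7.53 in siCtrl cells and 6.00 and 6.12 in MOCK cells. It was higher with siMLL/AF4 on each day, by 1.68 on day 2, where the siCtrl value was the lowest of all 8. The mean difference was 0.78 ± 0.79 (SD, n = 3 days; limma, adjusted p = 0.724). NDUFV1, the core subunit that carries the flavin and takes electrons from NADH, had 11.12, 11.13 and 11.36 in siMLL/AF4 cells, against 10.78, 10.89 and 11.44 in siCtrl cells and 11.30 and 11.27 in MOCK cells. The siRNA groups overlapped, and the mean difference was 0.17 ± 0.22 (SD, n = 3 days; limma, adjusted p = 0.924). The iron-sulphur core subunit NDUFS8 differed by -0.20, -0.09 and -0.41 on days 2, 4 and 6, and the iron-sulphur core subunit NDUFS1 by -0.67, -0.69 and 0.55, both chosen after their values were seen.

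NDUFC1, an accessory subunit of the membrane arm that was also chosen after its values were seen, had the largest SD over days of the tested complex I genes, 1.14. Its levels were 7.41, 9.81 and 10.24 in siMLL/AF4 cells, against 9.0, 9.31 and 10.0 in siCtrl cells and 9.28 and 9.48 in MOCK cells. It was therefore lowest of all arrays on day 2 with siMLL/AF4, and above siCtrl on both later days. NDUFB3, an accessory subunit chosen in the same way, differed by -1.29, 0.05 and 0.38 on days 2, 4 and 6. NDUFB6, an accessory membrane-arm subunit with 2 probes on all siRNA arrays, had mean differences of -0.06 and 0.04 by probe, so its sign depended on the probe. NDUFB4 and NDUFS6 had no value on at least 1 siRNA array, and NDUFC2 was too dim to be tested in the knock-down.

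Complex II, succinate dehydrogenase, belongs to the citrate cycle as well and has no subunit from mitochondrial DNA. SDHC, one of its membrane anchors, had 9.67, 9.70 and 9.72 in siMLL/AF4 cells, against 9.01, 9.19 and 9.24 in siCtrl cells and 10.21 and 10.30 in MOCK cells. The 3 groups did not overlap, with siMLL/AF4 between siCtrl and MOCK. SDHC was the only member whose siMLL/AF4 levels all lay above its siCtrl levels, as 3.89% of all genes did, and no member had all of them below (2.89% of all genes). Its mean difference was 0.55 ± 0.09 (SD, n = 3 days; limma, adjusted p = 0.675). A second, dimmer SDHC probe differed by -0.39, 0.34 and 0.84, so the probes disagreed on day 2.

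SDHA, the flavoprotein that oxidises succinate, had 11.48, 10.79 and 9.78 in siMLL/AF4 cells, against 10.99, 11.10 and 10.03 in siCtrl cells and 11.53 in MOCK cells on both days. It was higher with siMLL/AF4 on day 2 and lower on days 4 and 6, and its mean difference was -0.02 ± 0.45 (SD, n = 3 days; limma, adjusted p = 0.995). SDHD, the other anchor, had 9.73, 10.41 and 11.25 in siMLL/AF4 cells, against 10.02, 10.39 and 11.15 in siCtrl cells and 9.85 and 10.20 in MOCK cells. Here the groups overlapped throughout, and the mean difference was -0.06 ± 0.21 (SD, n = 3 days; limma, adjusted p = 0.978).

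Complex III takes electrons from ubiquinol through cytochromes and an iron-sulphur protein to cytochrome c. On day 2 the core proteins UQCRC1 and UQCRC2 with CYC1 had a median difference of -0.03, and the 6 small subunit genes one of -0.73. CYC1, cytochrome c1, which hands electrons to cytochrome c, had 12.0, 11.91 and 11.67 in siMLL/AF4 cells, against 11.59, 12.08 and 11.74 in siCtrl cells and 12.58 and 12.50 in MOCK cells. Both siRNA groups lay below MOCK and overlapped each other, with a mean difference of 0.06 ± 0.31 (SD, n = 3 days; limma, adjusted p = 0.981).

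UQCRQ, a small accessory subunit, had 12.24, 13.29 and 12.96 in siMLL/AF4 cells, against 12.85, 13.11 and 12.99 in siCtrl cells and 13.45 and 13.34 in MOCK cells. The siMLL/AF4 value of day 2 was the lowest of all 8, and that of day 4 was above siCtrl. UQCRB, a small subunit that binds ubiquinone, had 7.96, 9.87 and 10.26 in siMLL/AF4 cells, against 9.11, 9.28 and 9.44 in siCtrl cells and 9.22 and 9.66 in MOCK cells. Its differences of -1.15, 0.59 and 0.82 gave a mean of 0.09 ± 1.08 (SD, n = 3 days; limma, adjusted p = 0.982). A second, dimmer UQCRB probe differed by 1.03, 0.25 and 0.58, so the probes disagreed in sign on day 2. UQCR11, a small accessory subunit, varied least of the complex III genes, with differences of 0.18, 0.09 and 0.16. UQCR10 differed by -0.84, 0.46 and 0.36 at its brightest probe. Its other 2 probes were higher with siMLL/AF4 on day 2, by 0.79 and 0.51, and its mean differences over 3 probes ranged from -0.01 to 0.55. Of 19 members with several probes on all siRNA arrays, 6 (ATP5IF1, ATP5MC2, ATP5PB, SDHC, UQCR10 and UQCRB) had probes that disagreed in sign on day 2. UQCRHL, a near-identical copy of the hinge-protein gene UQCRH, may share hybridisation with it, and its differences of -0.95, 0.38 and 0.00 are uncertain for that reason.

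Complex IV, cytochrome c oxidase, has a catalytic core from mitochondrial DNA, and all its members here are nuclear subunits that surround that core. On day 2, 9 of the 10 tested genes were lower in siMLL/AF4 cells and none was higher, with a median difference of -0.73. COX8A, the smallest of them, had 12.14, 13.25 and 12.93 in siMLL/AF4 cells, against 13.12, 13.23 and 13.29 in siCtrl cells and 13.75 and 13.64 in MOCK cells. Its day 4 values differed by 0.01, while on days 2 and 6 siMLL/AF4 was the lower, with a mean difference of -0.44 ± 0.50 (SD, n = 3 days; limma, adjusted p = 0.816).

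COX7B, another small nuclear subunit, chosen after its values were seen, had 9.66, 11.95 and 12.40 in siMLL/AF4 cells, against 11.66, 11.53 and 11.86 in siCtrl cells and 10.85 and 11.27 in MOCK cells. It had the lowest day 2 difference of the tested genes, -2.0, and was above siCtrl by 0.42 and 0.54 on days 4 and 6. COX7C differed by -0.18, 0.10 and 0.21 and COX6C by -0.70, 0.34 and 0.22 on days 2, 4 and 6, and these 2 small subunits had the highest mean differences of the complex. COX4I1, the largest nuclear subunit, had 13.67, 13.72 and 13.16 in siMLL/AF4 cells, against 13.67, 13.76 and 13.37 in siCtrl cells and 14.12 and 13.86 in MOCK cells. It was level on day 2, unlike the rest of the complex.

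Several complex IV subunits come as a common and a tissue-restricted isoform. The common forms COX4I1, COX6A1, COX6B1, COX7A2 and COX8A had values on all 8 arrays, and COX6A1, COX6B1 and COX7A2 differed by -1.02, -0.83 and -0.64 on day 2. The restricted forms COX4I2, COX6A2, COX6B2, COX7A1, COX7B2 and COX8C each had no value on at least 1 array and were not tested. These 6 made up all complex IV genes that were left out.

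Complex V, ATP synthase, consists of a catalytic F1 head, a ring of c subunits in the membrane that turns with proton flow, and a peripheral stalk that holds the head still. The 4 tested F1 genes had a median difference of -0.07 on day 2, the 4 stalk genes one of -0.44, the 3 c-subunit genes one of -0.54 and the 5 small membrane subunits one of -0.82. All stalk and small membrane genes were lower in siMLL/AF4 cells on that day. These roles, too, were assigned with the values known.

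ATP5F1B, the catalytic beta subunit, chosen after its values were seen, had 14.74, 14.03 and 13.81 in siMLL/AF4 cells, against 14.31, 14.43 and 14.21 in siCtrl cells and 14.29 and 14.42 in MOCK cells. It was highest of all arrays on day 2 with siMLL/AF4 and below siCtrl on both later days, so that its differences on days 2 and 4 were opposite in sign to the medians of the members. ATP5F1A, the alpha subunit, differed in the same way, by 0.67, -0.19 and -0.36. A higher day 2 level with lower levels on days 4 and 6 was shared by 6 members (ATP5F1A, ATP5F1B, ATP5MC3, CYC1, NDUFV3 and SDHA), against 17.1% of all genes.

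**Figure D2:**
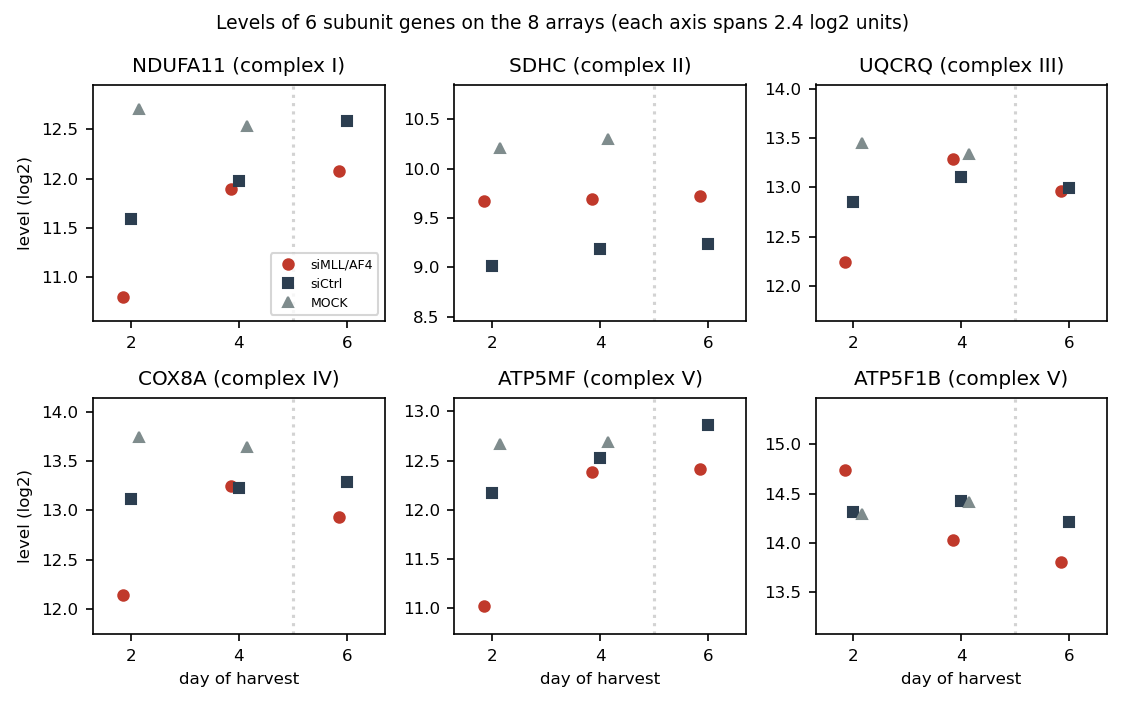
Levels (log2, vertical axis) of 6 subunit genes on each of the 8 arrays by day of harvest (horizontal axis), with siMLL/AF4 as circles, siCtrl as squares and MOCK as triangles, 1 array per point. The dotted line parts the 2 arrays of the newer version. The siMLL/AF4 point of day 2 is the lowest for NDUFA11, UQCRQ, COX8A and ATP5MF and the highest for ATP5F1B, and the 3 SDHC groups do not overlap.

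ATP5MF, the small membrane subunit f, had 11.02, 12.38 and 12.42 in siMLL/AF4 cells, against 12.17, 12.53 and 12.86 in siCtrl cells and 12.67 and 12.69 in MOCK cells. It was lower with siMLL/AF4 on each day, with a mean difference of -0.58 ± 0.52 (SD, n = 3 days; limma, adjusted p = 0.749), and its 2 probes had means of -0.58 and -0.56. The stalk gene ATP5PF, coupling factor 6, differed by -0.49, 0.00 and 0.44, and its 3 probes had means between -0.22 and 0.07.

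The genes ATP5MC1, ATP5MC2 and ATP5MC3 encode the same mature c subunit with different import sequences. ATP5MC3 had 8.11, 7.74 and 5.22 in siMLL/AF4 cells, against 7.89, 8.13 and 7.08 in siCtrl cells and 8.24 and 8.03 in MOCK cells. Its level on day 6 with siMLL/AF4 was far below the other 7, at a difference of -1.86, on the array version that no other day used. The mean difference was -0.68 ± 1.07 (SD, n = 3 days; limma, adjusted p = 0.816). ATP5MC1 differed by -0.54, 0.17 and -0.13 and ATP5MC2 by -0.97, 0.20 and -0.24. For both, a dimmer probe disagreed in sign, with means from -0.16 to 0.21 over 2 ATP5MC1 probes and from -0.34 to 0.70 over 3 ATP5MC2 probes. Levels of the disagreeing probe ran from 5.6 to 7.3 for ATP5MC1 and from 1.9 to 5.2 for ATP5MC2.

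Whether the difference between siMLL/AF4 and siCtrl cells changed with day was tested as a slope over the 3 days. The median slope of the members was 0.13 per day, against -0.04 over all genes, and 50 of 69 slopes were above 0 (43.1% of all genes). No slope was called by limma after adjustment (0.0% of 9096 genes), and 4 members had an unadjusted p under 0.05 (12.0% of all genes). These were COX7B at 0.63 ± 0.20 per day (SE; limma, adjusted p = 0.358), UQCRB at 0.49 ± 0.17 (adjusted p = 0.382; -0.11 at its second probe), NDUFB3 at 0.42 ± 0.15 (adjusted p = 0.399) and ATP5MC3 at -0.52 ± 0.15 (adjusted p = 0.321). This fit had 1 residual degree of freedom, and other settings called COX7B and UQCRB among 3 or 4 members. These were 4 of 68 members with the filter at the 70th percentile (5.95% of all genes), 3 of 69 with an offset of 64 (3.81%) and 4 of 69 with a trended robust variance (4.24%), shares near those of all genes. Day 6 and the newer array version cannot be told apart in it.

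Against MOCK cells, the subunit genes were lower in both siRNA groups. Each fit used all 8 arrays, so the siRNA arrays of day 6 entered it although MOCK was not taken then. For ATP5MC3, the fitted differences from MOCK were -0.51 with siMLL/AF4 and 0.17 with siCtrl. Those measured on days 2 and 4 were -0.14 and -0.28 with siMLL/AF4, and -0.35 and 0.10 with siCtrl. With siMLL/AF4 the median difference was -0.56, with 63 of 69 genes below 0 (49.7% of all genes) and a median of 0.00 over all genes. None was called by limma at an adjusted p under 0.05 (0.0% of 8886 genes). At an unadjusted p under 0.05, 16 were lower (9.59% of all genes) and 0 higher. An offset of 64 or a trended robust variance each brought 3 calls among the 69, ATP5F1D, NDUFA11 and NDUFA13, a share near that of all genes (4.81% and 4.22%). Without the arrays of day 2, which leaves 1 MOCK array, the median was -0.24. On day 2 the median was -0.96 and on day 4 it was -0.20, with 32 and 1 genes at least 2-fold lower (9.98% and 6.77% of all genes). With siCtrl the median difference from MOCK was -0.36, with 59 of 69 below 0 (52.0% of all genes) and a median of -0.03 over all genes. Again none was called by limma (0.0% of 8886 genes), and 10 were lower at an unadjusted p under 0.05 (8.18% of all genes). On day 2 the siCtrl median was -0.46 and on day 4 it was -0.22. Without the arrays of day 2 the fitted siCtrl median was -0.20, and without those of day 4 it was -0.60. Both comparisons use the same MOCK arrays, so they are not independent.

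With siMLL/AF4 the largest differences from MOCK were in complexes I and V, and with siCtrl they were those of SDHC and UQCR10 (-1.01). NDUFA11 differed by -1.29 ± 0.33 (SE) with siMLL/AF4 (limma, adjusted p = 0.162) and by -0.83 with siCtrl (limma, adjusted p = 0.242). NDUFA13, an accessory complex I subunit, differed by -1.28 ± 0.33 (SE) with siMLL/AF4 (limma, adjusted p = 0.162) and by -0.87 with siCtrl. ATP5MK, a small membrane subunit of ATP synthase, differed by -1.15 ± 0.28 (SE) with siMLL/AF4 (limma, adjusted p = 0.162) and by -0.95 with siCtrl (limma, adjusted p = 0.21). NDUFA13 and ATP5MK were chosen after their values were seen. SDHC ran the other way in order, at -0.59 with siMLL/AF4 and -1.14 with siCtrl (limma, adjusted p = 0.203 and 0.21). Its second probe differed from MOCK by -0.39 and 0.45 with siMLL/AF4 and by 0.00 and 0.11 with siCtrl on days 2 and 4, so the probes disagreed. On days 2 and 4, 36 members had both siMLL/AF4 levels below both MOCK levels (23.1% of all genes), and only NDUFA5 had both above (26.2% of all genes). For siCtrl, 46 members had both levels below both MOCK levels (31.9% of all genes), and COX7B, NDUFAB1, NDUFB10 and NDUFS1 had both above (26.4%).

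**Figure D3:**
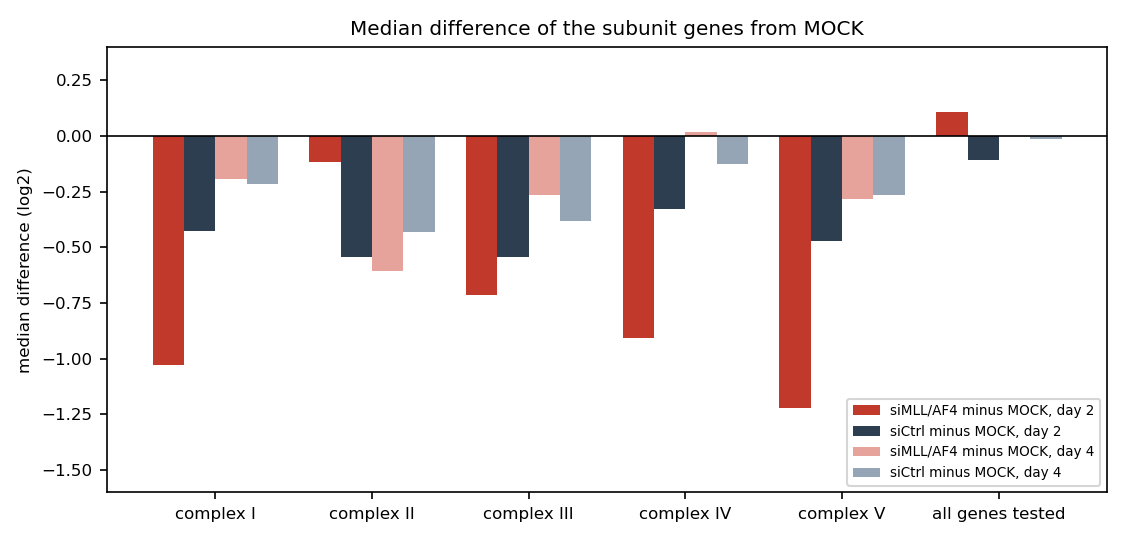
Median difference from MOCK (log2, vertical axis) of the tested genes of each complex and of all genes tested, with 1 bar each for siMLL/AF4 and siCtrl on day 2 and on day 4. On day 2 the siMLL/AF4 bars of complexes I, III, IV and V lie between -1.22 and -0.72 and the siCtrl bars between -0.54 and -0.33, and in complex II the siCtrl bar is the longer.

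Culture time, together with the repeated pulses, was examined on the 6 older arrays as day 4 against day 2 within each treatment. Culture time and pulses cannot be told apart in this comparison. The median change of the subunit genes was 0.40, against 0.00 over all genes, and 62 of 70 were higher on day 4 (50.3% of all genes). None was called by limma (0.0% of 10230 genes), and 2 were higher at an unadjusted p under 0.05 (4.15% of all genes), ATP5MK at 0.66 and NDUFC2 at 2.66 (limma, adjusted p = 0.461 for each). NDUFC2, an accessory subunit of complex I, lay below the median level of each array, with 2.55 and 4.6 in siMLL/AF4 cells, 1.02 and 4.43 in siCtrl cells and 1.86 and 4.37 in MOCK cells on days 2 and 4. The 3 treatments stood as replicates and contributed unequally, with medians of 0.93 in siMLL/AF4, 0.20 in siCtrl and 0.07 in MOCK cells. The spread behind the p-values of this fit therefore includes differences between treatments. At least 2-fold higher on day 4 were 34 members in siMLL/AF4 cells (10.4% of all genes), 2 in siCtrl cells (7.44%) and 2 in MOCK cells (5.73%). Without the siMLL/AF4 arrays the median change was 0.14.

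Other mitochondrial lists had day 2 medians nearer to that of all genes, 0.09. The subunit median of -0.64 on day 2 stood beside medians of 0.02 over 47 assembly factors, 0.26 over 16 genes of electron carriers and quinone synthesis, 0.22 over 15 genes of the citrate cycle and pyruvate dehydrogenase, and 0.21 over 17 genes of carriers and import. The 16 regulators of mitochondrial biogenesis had a median of 0.05, and the 76 genes of the mitochondrial ribosome one of -0.31, with 53 lower (45.0% of all genes). Cytosolic ribosomal proteins, a list added after the data were seen, also had a median of -0.30, with 58 of 74 lower (45.0% of all genes). Their part in the result was not tested. Proteasome subunits, likewise added, had a median of 0.49, with 30 of 34 higher and 4 lower (45.0% of all genes lower). These are descriptions of 1 pair of arrays, and differences between the lists were not tested.

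In the other comparisons the mitochondrial ribosome had values close to those of the subunit genes. Against MOCK, its median difference was -0.41 with siMLL/AF4, with 65 of 76 genes lower (49.7% of all genes). At an unadjusted p under 0.05 (limma), 21 of its genes were lower (9.59% of all genes). With siCtrl its median difference was -0.37, with 62 of 76 lower (52.0% of all genes). On day 4 against day 2 its median change was 0.40, with 73 of 76 higher (50.3% of all genes). Assembly factors had medians of -0.27 with siMLL/AF4 and -0.26 with siCtrl against MOCK, and of 0.30 on day 4 against day 2. These lists, too, were not compared with the subunit genes by a test.

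**Figure D4:**
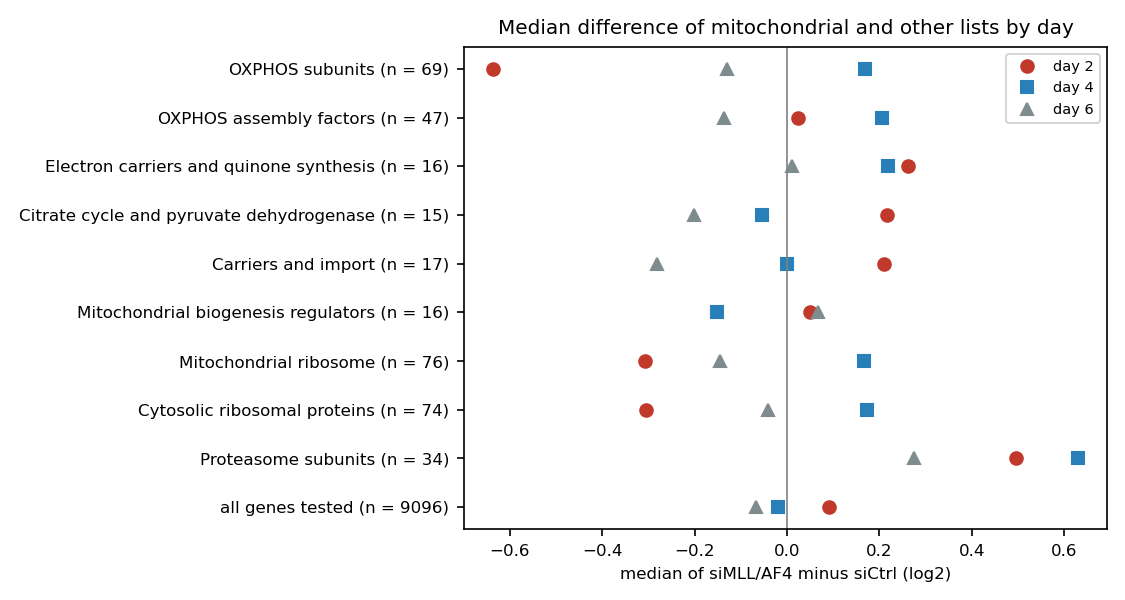
Median difference between siMLL/AF4 and siCtrl cells (log2, horizontal axis) of the subunit genes, of other gene lists and of all genes tested (rows), with day 2 as circles, day 4 as squares and day 6 as triangles. The subunit genes have the lowest day 2 median of the lists drawn, -0.64, followed by the mitochondrial ribosome at -0.31 and the cytosolic ribosomal proteins at -0.30.

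Averaged over the 3 days, none of these lists held a gene called by limma after adjustment (0.0% of 9096 genes). At an unadjusted p under 0.05 (7.39% of all genes), the assembly factors held 2 of 47, ATPAF1, a chaperone of F1 assembly, and COX19, a copper-handling factor of complex IV. The biogenesis regulators held 1 of 16 (POLG2), the cytosolic ribosomal proteins 1 of 74 (RPL37) and the proteasome subunits 8 of 34, all of them higher in siMLL/AF4 cells, while the other lists held 0. The proteasome list had a median difference of 0.42. COX19 had the highest difference of that list, 1.57 ± 0.47 (SE; limma, adjusted p = 0.586), and SDHAF4, an assembly factor of complex II, the lowest, -0.75 ± 0.31 (SE; limma, adjusted p = 0.681). Among the biogenesis regulators, POLG2, the accessory subunit of the mitochondrial DNA polymerase, was highest at 0.64 ± 0.23 (SE; limma, adjusted p = 0.651), and SSBP1, the single-strand binding protein of mitochondrial DNA, lowest at -0.26. Electron carrier genes ran from -0.48 for DHODH, a ubiquinone-linked enzyme of pyrimidine synthesis, to 0.55 for ETFDH, which passes electrons from fatty acid oxidation to ubiquinone. Citrate cycle genes ran from -0.58 for OGDH to 0.39 for DLD, which are parts of the same oxoglutarate dehydrogenase complex. Carriers and import ran from -0.58 for SLC25A1, the citrate carrier, to 0.22 for VDAC3, an outer membrane channel. Mitochondrial ribosome genes ran from -0.66 for MRPL41 to 0.58 for MRPS18A.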

How the data were processed

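Biotin-labelled total RNA of 8 SEM samples was measured on Illumina bead arrays of 2 versions, per the labels. GenomeStudio is named in the submitters' processing notes; how background was corrected and values normalized is not given in the sources used here. Base e was inferred from the range of the deposited values, which were treated as natural log values and converted to log2. Entries of Null (28.5% to 28.8% of 39421 probes per array) were treated as missing. No column was unmapped (0).

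Symbols came from the platform annotation, updated through RefSeq names. Tested probes had no missing value in the fit, and their mean reached the 50th percentile of all probe means in each array version. For this percentile only, Null entries stood at the lowest value of all arrays, so the cut lay below the median of measured values. The brightest such probe represented its gene. Limma 3.58.1 in R 4.3.3 (lmFit, eBayes, two-sided) was used with Benjamini-Hochberg adjustment over all genes at 0.05. The time point was a block, because the labels give arrays of the same time point a common harvest day. For day 4 against day 2, the treatment was the block instead. The fit code was run on simulated data with independent errors and known changes. Such a run cannot show whether days or treatments can stand for replicates. Arrays have no depth in reads, and their number limits the precision.

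The text names genes of complex II, CYC1, the 2 highest and 2 lowest of each other complex, probes that disagree, paralogues and isoforms, and the extremes of each list; other genes are said to be chosen after their values were seen. Members, lists and tests were chosen with earlier results of these data known. Alternatives were other scalings (arrays of 1 version brought to the same quantiles, or every array to the same median), testing dim genes too, a filter at the 70th percentile, an offset of 64, a floor at the 25th percentile, a trended robust variance, the mean of probes, no block, MOCK arrays in the fit, siCtrl averaged with MOCK as control, and leaving out each time point, with some arrays left out after seeing the data.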

Additional observations from a re-analysis of the deposited data

How the results depend on the processing

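Knock-down over all days kept 0 called members under every alternative run, and its median difference ranged from -0.33 to 0.02 when 1 time point was left out, with 34 to 60 genes below 0 (34 without replicate 1, the day 2 pair). Against MOCK, 3 members (ATP5F1D, NDUFA11 and NDUFA13) were called with siMLL/AF4 under the offset of 64 and 3 under the trended robust variance, where 427 and 375 genes were called in all. The share of all genes lower at an unadjusted p under 0.05 was counted in the main fits only (9.59% with siMLL/AF4, 8.18% with siCtrl). Counts of members under other settings therefore have no share to stand beside. Members lower at that threshold numbered 30 under the offset and 32 under the trended robust variance. That count was 0 to 14 with a time point or array left out (0 without replicate 1, 8 without replicate 3, 6 without siMLL/AF4 replicate 1), and 3 with no replicate block. For siCtrl it was 0 to 13 (1 without replicate 1, 0 without replicate 2, 4 without replicate 3, 5 without siCtrl replicate 1) and 3 with no replicate block, and the median ranged from -0.60 (without replicate 2) to -0.20 with 1 time point left out. Without the block, knock-down kept 0 calls. Its median of -0.18 could not change in that setting, because both siRNA groups were measured on the same days. The slope with day called 4 members under the filter at the 70th percentile (ATP5MC3, COX7B, NDUFC1 and UQCRB), 3 under the offset (COX7B, NDUFB3 and UQCRB) and 4 under the trended robust variance (COX7B, NDUFB3, NDUFC1 and UQCRB), where 435, 347 and 386 genes were called in all. The cause was not tested.

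Among named genes, none of which was called in the knock-down, 24 values turned their sign. With 1 time point left out, the mean difference ranged for ATP5F1A from -0.28 to 0.24, for ATP5MC1 from -0.33 to 0.022, for ATP5PF from -0.084 to 0.22, for COX6B1 from -0.44 to 0.090, for COX6C from -0.24 to 0.28, for COX7A2 from -0.30 to 0.053, for COX7C from -0.042 to 0.16. It ranged for CYC1 from -0.12 to 0.17, for NDUFB6 from -0.28 to 0.30, for SDHA from -0.39 to 0.12, for SDHD from -0.14 to 0.053, for UQCR10 from -0.24 to 0.41, for UQCRB from -0.28 to 0.71, for UQCRHL from -0.48 to 0.19 and for UQCRQ from -0.32 to 0.067. With the mean of probes ATP5MC1 was at 0.024 and UQCR10 at 0.29, and with the offset UQCR10 was at 0.012. Against the average of siCtrl and MOCK, ATP5F1A was at -0.027, COX7C at -0.065, CYC1 at -0.18 and UQCR11 at -0.082. The cause was not tested.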
